A study of Mus musculus with 28 samples.

Results

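The genes described here mark 2 cell classes of the mouse retina, the bipolar cells and the Müller glia, and were followed in ribosome-bound mRNA from the retina and, for contrast, from the superior colliculus (SC), the brain target of retinal ganglion cell (RGC) axons. A list of 10 genes was used: Trpm1, Prkca, Pcp2, Cabp5 and Grik1os1 for bipolar cells, and Rlbp1, Glul, Slc1a3, Apoe and Clu for Müller glia. Of the 10, 9 had values among the 23995 genes listed in each library, and Grik1os1 was not analysed here. The mice carried the RiboTag allele, in which Cre recombination adds an HA tag to the ribosomal protein RPL22, and tagged ribosomes were pulled down with an HA antibody from pooled tissue of C57BL/6 animals. In Cre-positive animals the Pax6-alpha-Cre transgene acts in progenitors of the peripheral retina, so that part of the retinal cells carry the tag. Cre-negative animals had the RiboTag allele without Cre, and their SC measures mRNA that binds without a tag. The eyes of Cre-positive animals (called retina here) and the SC of Cre-positive and Cre-negative animals were sampled in embryos at E17.5, in pups at P0.5 and P7.5, and in adults, with 2 libraries in each of the 12 groups. A further 4 adult libraries, 1 per group, came from Cre-positive retina and SC with or without ribosome run-off, an incubation in which elongating ribosomes finish and leave the message. In these bulk samples, fewer cells of a type and less RNA per cell cannot be told apart.

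Bipolar cells carry the photoreceptor signal to amacrine and ganglion cells. ON bipolar cells read glutamate through the receptor mGluR6, whose G protein cascade closes the cation channel TRPM1, and rod bipolar cells are classically identified by protein kinase C alpha, the product of Prkca. Müller glia span the retina and are the last major class to be born from its progenitors. They clear glutamate through the transporter GLAST (Slc1a3), convert it to glutamine with glutamine synthetase (Glul), carry 11-cis-retinoids on CRALBP (Rlbp1), and secrete the lipid carriers apolipoprotein E (Apoe) and clusterin (Clu). Most of the glial genes are also used by astrocytes of the brain, and Trpm1 and Rlbp1 are also used by pigment cells of the eye.

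The members lie on 6 chromosomes in mm10 (GRCm38), by the GENCODE annotation. Trpm1 is at chr7:64153835-64269775 on the plus strand, Prkca at chr11:107933387-108343928 on the minus strand, Pcp2 at chr8:3623371-3625545 on the minus strand and Cabp5 at chr7:13398132-13408887 on the plus strand. Rlbp1 is at chr7:79374870-79387048 on the minus strand, Glul at chr1:153899944-153909723 on the plus strand, Slc1a3 at chr15:8634124-8710764 on the minus strand, Apoe at chr7:19696109-19699188 on the minus strand and Clu at chr14:65968483-65981547 on the plus strand. Exons of Prkca overlap Apoh on the opposite strand, which was listed at 0 in all 24 FPKM libraries. Exons of Trpm1 overlap Gm44722, those of Pcp2 overlap Pet100 and those of Glul overlap Teddm2, all on the opposite strand, and the libraries keep no strand.

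Trpm1, Cabp5 and Rlbp1 are the members that were above 0 in at least 1 retina library and listed at 0 in all 8 Cre-positive SC libraries, and their promoter windows are shown for that reason. Each window holds 300 bases, 250 before and 50 after an annotated start, from RefSeq on GRCm38.p6, read 5′ to 3′ on the strand of the gene. Capitals mark TAATCC or its reverse complement GGATTA, the letters preferred by the homeodomain factors OTX2 and CRX of photoreceptors and bipolar cells. The motif was chosen with its matches known.
Trpm1 (chr7:64153585-64153884, plus strand): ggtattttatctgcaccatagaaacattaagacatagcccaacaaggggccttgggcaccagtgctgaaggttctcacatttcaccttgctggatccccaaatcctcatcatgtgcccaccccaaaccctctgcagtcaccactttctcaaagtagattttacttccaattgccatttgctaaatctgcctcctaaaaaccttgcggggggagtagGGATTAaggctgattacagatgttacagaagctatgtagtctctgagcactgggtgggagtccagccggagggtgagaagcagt
Cabp5 (chr7:13397905-13398204, plus strand): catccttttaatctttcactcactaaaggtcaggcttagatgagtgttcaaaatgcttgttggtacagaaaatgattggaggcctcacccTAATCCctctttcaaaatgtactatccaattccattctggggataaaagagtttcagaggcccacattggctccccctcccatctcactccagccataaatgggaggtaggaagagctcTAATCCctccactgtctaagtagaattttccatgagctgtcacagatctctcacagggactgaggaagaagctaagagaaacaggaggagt
Rlbp1 (chr7:79386978-79387277, minus strand): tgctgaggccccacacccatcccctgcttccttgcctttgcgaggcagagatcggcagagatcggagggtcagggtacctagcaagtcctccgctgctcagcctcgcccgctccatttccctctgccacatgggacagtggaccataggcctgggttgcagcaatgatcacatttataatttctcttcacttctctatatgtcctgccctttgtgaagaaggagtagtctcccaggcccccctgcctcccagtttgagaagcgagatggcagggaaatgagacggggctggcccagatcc
The Cabp5 window held 2 matches, starting 160 and 41 bases before the annotated start, and the Trpm1 window shown, the first of 2, held 1 match on the reverse strand. The second Trpm1 window, chr7:64185209-64185508, held none. The Rlbp1 window held none. Of all 32851 windows in the table, 7.06% held at least 1 match and 0.359% held 2 or more. Of the 9 members, 8 had a window, and Apoe was the remaining member with a match. These matches describe letters and not binding.

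Depth and library identity bear on every value below. FPKM scales fragments by transcript length and library size and carries no read number, and from the spacing of low values the retina libraries were estimated to hold 6754954 to 10246292 fragments. On a transcript of 2 kb, 3 fragments then correspond to 0.146 to 0.222 FPKM in retina, but to 0.712 to 2.90 FPKM in the 4 adult SC libraries and 3.10 FPKM in the library labelled E17.5 Cre-negative SC replicate 1. The retina libraries were not equally rich in genes. Adult retina replicate 1 had 2082 genes above 0 against 8079 in its replicate, and P7.5 retina replicate 1 had 4311 against 8119. For adult retina replicate 1 the depth estimate also rests on 20 low values. A 0 in either library therefore says less than its estimated depth implies. A value of 0 is reported as listed at 0, since at least 1 of 5 genes that every cell uses (Gapdh, Eef1a1, Rpl3, Rps6 and Tubb5, chosen after values were seen) was also listed at 0 in 21 of the 24 libraries. The library labelled adult Cre-negative SC replicate 1 held eye genes, with the photoreceptor phosphodiesterase subunit Pde6g at 45.5 FPKM and the lens crystallin Cryaa at 129 FPKM, and correlated best with adult retina replicate 2 (r = 0.753 over 7193 genes on log2(FPKM + 1), against 0.486 with its own replicate). The library labelled P7.5 retina replicate 1 had Pde6g at 0.350 FPKM against 171 FPKM in its replicate. The photoreceptor genes Guca1a and Rom1 were at 0 and 0.377 FPKM, against 54.0 and 94.8 FPKM. The cone opsin Opn1sw was at 2526 FPKM against 84.1 FPKM, so that its eye genes did not go one way. Its photoreceptor sum of 2530 FPKM, against 782 FPKM, was nearly all Opn1sw. This library correlated best with P7.5 Cre-positive SC replicate 1 (r = 0.849, against 0.666 with its own replicate). Such a match was not particular to these libraries. Outside P0.5 every library correlated best with a library of another group, and at P0.5 each correlated best with its own replicate. E17.5 Cre-positive SC replicate 1 also correlated best with a retina library, E17.5 retina replicate 1 (r = 0.548, against 0.457 with its own replicate). At E17.5, Cre-positive and Cre-negative SC replicate 2 correlated best with each other (r = 0.792, against 0.457 and 0.369 with their own replicates). At P7.5, Cre-positive and Cre-negative SC replicate 1 did so too (r = 0.894, against 0.736 and 0.716). Late retina results of Rlbp1, bipolar and cascade lists are given with and without adult Cre-negative SC replicate 1 and P7.5 retina replicate 1.

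**Figure D1:**
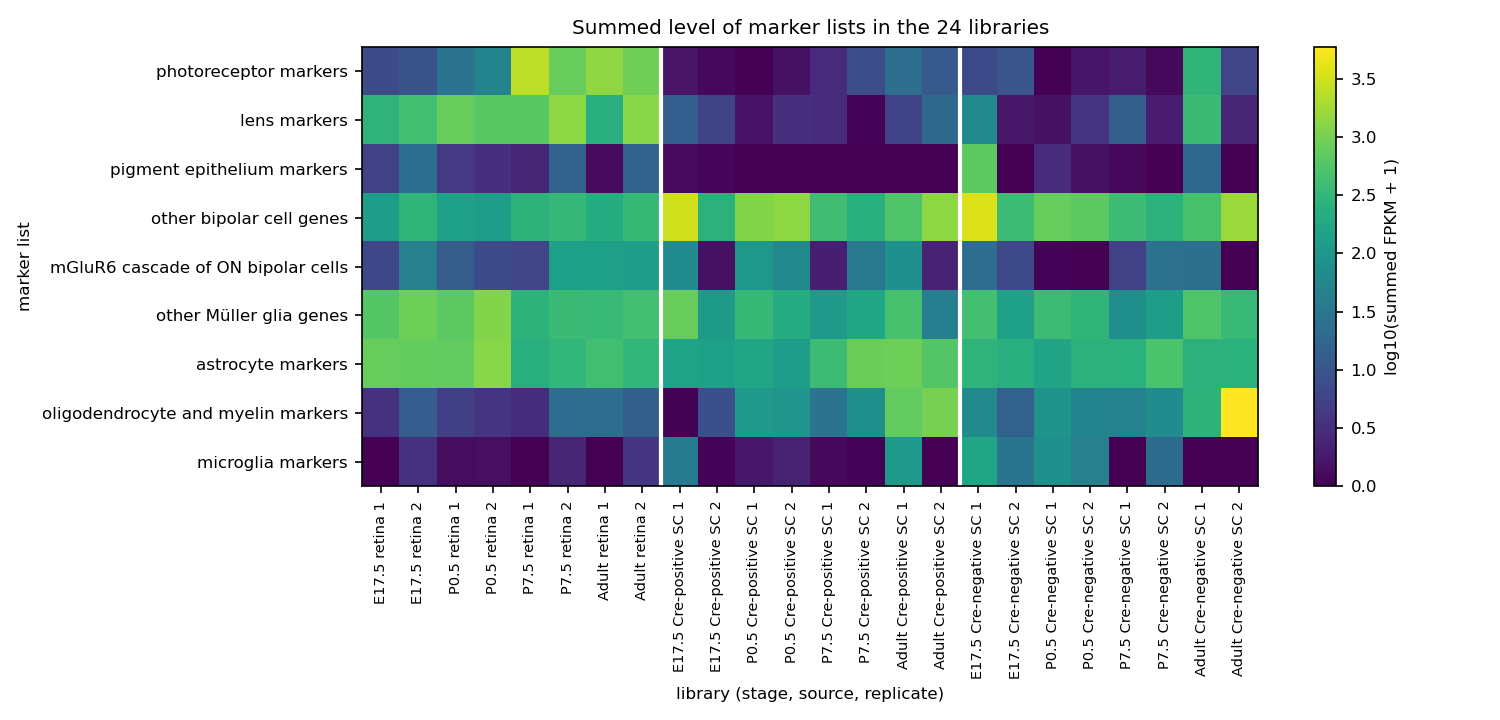
Summed FPKM of 9 marker lists, on a log10 scale after adding 1, in the 24 libraries, with white lines between retina, Cre-positive SC and Cre-negative SC. Photoreceptor sums reached 782 to 2530 FPKM in P7.5 and adult retina but 6.34 and 8.28 FPKM in E17.5 retina. The sum of 2530 FPKM came from P7.5 retina replicate 1, where Opn1sw alone was 2526 FPKM. Adult Cre-negative SC replicate 1 stood apart, with a photoreceptor sum of 292 FPKM against 5.25 in its replicate.

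The bipolar members were low in the retina at every stage, at 1.56 FPKM or less in every library. Trpm1, the transduction channel of ON bipolar cells, was listed at 0 and 1.56 FPKM in the 2 retina libraries at E17.5, at 0.356 and 0.0664 FPKM at P0.5, at 0 and 0.650 FPKM at P7.5, and at 0 and 0.894 FPKM in the adult. The replicates of each stage were as far apart as the stages were, and no order of stages could be read from them. In the SC, Trpm1 was listed at 0 in 15 of 16 libraries and at 0.0170 FPKM in P7.5 Cre-negative SC replicate 2. Cabp5, a calcium-binding protein of bipolar cells, was above 0 in P7.5 retina replicate 1 at 0.0812 FPKM and in adult retina replicate 2 at 0.161 FPKM, and was listed at 0 in the other 22 libraries. Pcp2, a regulator of Go signaling found in ON bipolar and Purkinje cells, was listed at 0 in all 24 libraries. None of the 3 reached the filter of 1 FPKM in 2 libraries, so none of them was tested.

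The highest single Trpm1 value was that of E17.5 retina replicate 2, whose replicate was listed at 0, and the genes of pigment cells in the same whole-eye libraries are given beside it. Mlana, a melanosome protein, was listed at 4.8 FPKM in E17.5 retina replicate 2, at 2.09 FPKM in P7.5 retina replicate 2 and at 2.46 FPKM in adult retina replicate 2, and was listed at 0 in the other 5 retina libraries. These 3 libraries were also the 3 with the highest Trpm1. Grm6, which encodes mGluR6, was listed at 0 in E17.5 retina replicate 2 and at 1.78 and 0.210 FPKM in the other two. The 13 pigment epithelium genes summed to between 0.287 and 23.1 FPKM in the 8 retina libraries and to at most 0.278 FPKM in the Cre-positive SC, and the defining genes Rpe65 and Tyr were at most 0.918 FPKM and at 0 in retina. The part of pigment cells in the Trpm1 values was not tested.

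Prkca, the kinase used to identify rod bipolar cells, was the member that passed the test with all libraries, lower in early retina than in Cre-positive SC and higher with than without Cre in the P0.5 SC. Its late retina minus Cre-positive SC difference was -0.34 (SE 0.34, limma adjusted p = 0.791). The Cre-positive SC libraries of P0.5 listed it at 5.04 and 5.45 FPKM, those of E17.5 at 1.04 and 0 FPKM, those of P7.5 at 0.709 and 0 FPKM, and the adult ones at 1.999 and 0.532 FPKM. In the retina it stayed between 0 and 0.0342 FPKM at E17.5 and P0.5, reached 0.563 and 0.339 FPKM at P7.5, and was 0.0115 and 0.425 FPKM in the adult. In the Cre-negative SC it was listed at 0 in 7 of 8 libraries and at 0.218 FPKM in adult replicate 1. The P0.5 Cre-positive SC libraries lay above all other libraries, and the share of all genes with such a separation was not counted. Over E17.5 and P0.5, Prkca was lower in retina than in Cre-positive SC by a log2(FPKM + 1) difference of -1.56 (SE 0.34, limma adjusted p = 0.00326). In this comparison 20.5% of the 7193 genes tested passed, 222 of them higher and 1255 lower in retina, and Prkca was 1 of the 6 members tested. It reached 1 FPKM in 4 of 8 Cre-positive SC libraries and in no retina or Cre-negative SC library, so it entered the tests through the group where it was high, which favours this direction, and Trpm1, Cabp5 and Pcp2 did not enter. With no filter, over 13011 genes, its adjusted p in limma was 0.00304.

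The Cre-positive SC was also set against the Cre-negative SC, the control for binding without a tag. At P0.5, Prkca was higher in the Cre-positive SC by a log2(FPKM + 1) difference of 2.64 (SE 0.51, limma adjusted p = 0.00198). Of the 5983 genes tested, 32.5% passed at this stage, 1684 higher and 260 lower, and Prkca was again 1 of 5 members tested, below that background. The same limit of the filter holds here, and with no filter, over 10204 genes, the limma adjusted p was 0.00310. Without P0.5 Cre-positive SC replicate 1 the difference was 2.69 and its adjusted p was 0.0683. Prkca was higher in each Cre-positive mean at the other stages too, by 0.52 (E17.5), 0.39 (P7.5) and 0.96 (adult), and none of these passed (limma adjusted p = 0.875, 1 and 1), where 1.57%, 0% and 0.15% of genes were called. The 4 other members tested at P0.5 did not pass, and Clu came nearest, at 129.8 and 43.4 FPKM against 0 and 0 FPKM (difference 6.25, SE 2.63, limma adjusted p = 0.101).

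**Figure D2:**
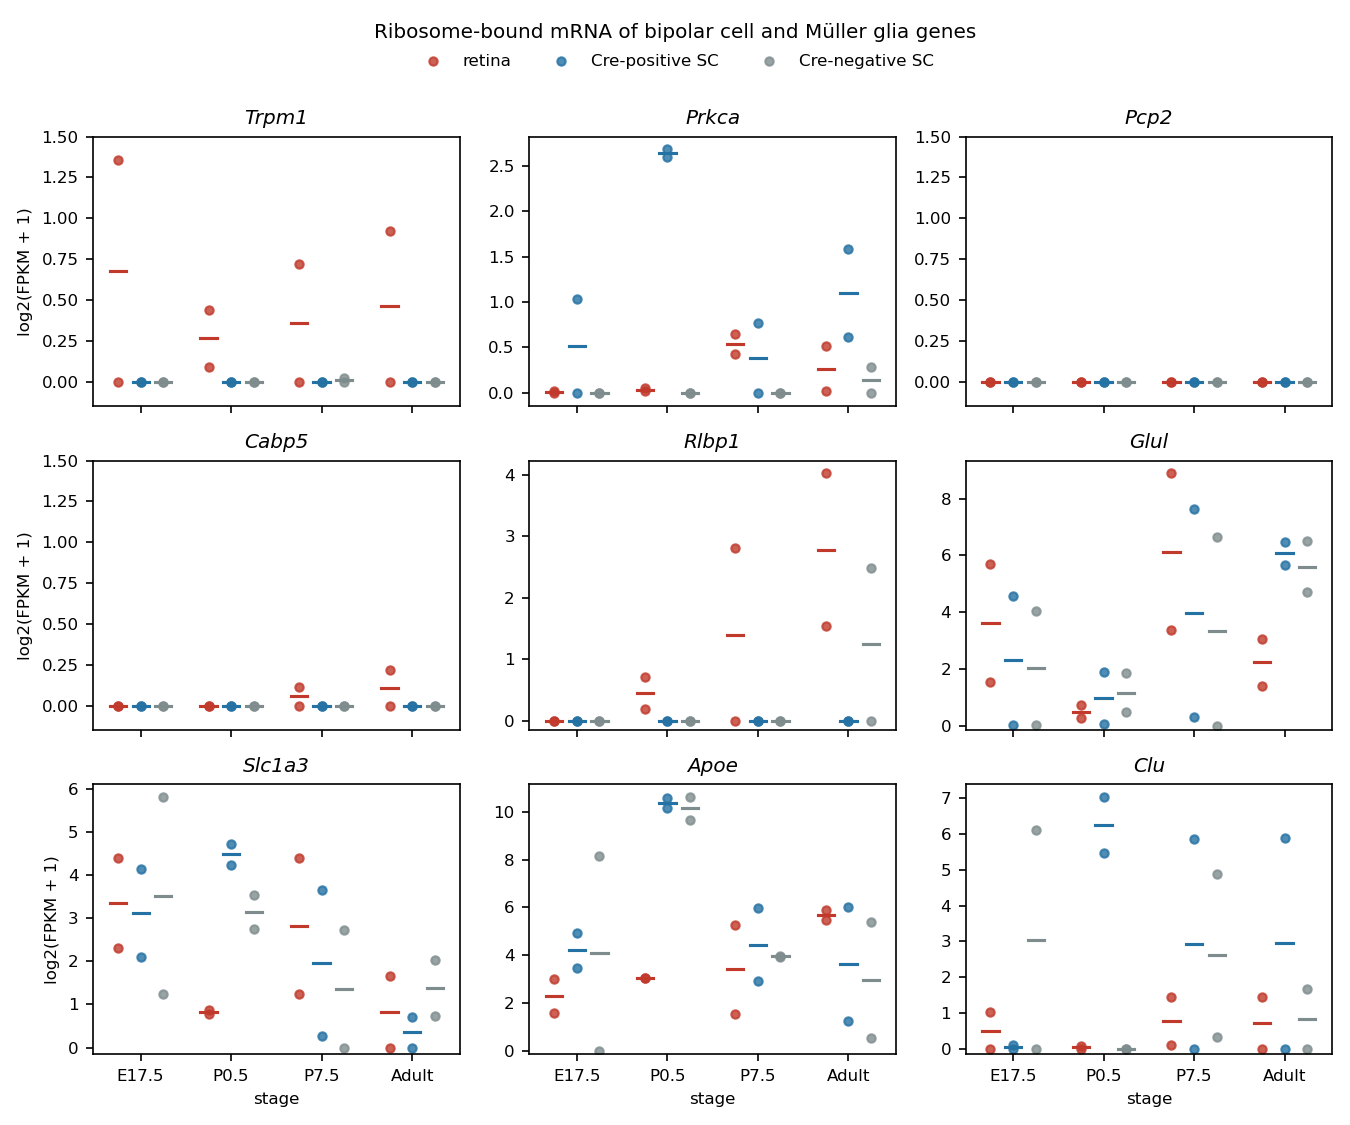
Level of the 9 members on a log2(FPKM + 1) scale by stage, with 1 point per library, bars at the mean of 2 libraries, and colors for retina, Cre-positive SC and Cre-negative SC. Trpm1, Cabp5 and Rlbp1 were above 0 in some retina libraries and in no Cre-positive SC library, while Prkca was highest in the P0.5 Cre-positive SC.

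The wider set of bipolar genes was read from a list of 28 other bipolar genes and a list of 15 genes of the mGluR6 cascade. The cascade list also counted Trpm3, a channel related to Trpm1. Within the retina, 12 and 4 of these were testable, and none passed in any of the 4 stage comparisons, against 0.956% of all 4080 genes between the late stages (P7.5 and adult) and the early stages (E17.5 and P0.5). Gnb3, the G protein beta subunit shared by cones and ON bipolar cells, was listed at 3.30 and 24.8 FPKM at E17.5, 9.31 and 4.84 FPKM at P0.5, 3.36 and 104 FPKM at P7.5, and 104 and 94.2 FPKM in the adult retina. It was at most 0.763 FPKM in the Cre-positive SC. It was higher in retina than in Cre-positive SC at the early stages by 3.05 (SE 0.99, limma adjusted p = 0.0381) and at the late stages by 5.20 (SE 0.99, limma adjusted p = 0.0469). The late comparison called 0.167% of the 7193 genes. Grm6 was listed at 0 in all E17.5 and P0.5 libraries, and at 0.123, 1.78, 2.02 and 0.210 FPKM in the 4 late retina libraries.

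The early retina also differed from the Cre-positive SC in genes that bipolar cells share with other neurons. Isl1, a factor of ON bipolar, ganglion and amacrine cells, was higher in retina by 1.83 (SE 0.37, limma adjusted p = 0.00199). Camk2b and Pcp4l1 of the same list were lower in retina, by log2(FPKM + 1) differences of -3.98 (SE 1.15) and -2.37 (SE 0.72). Trpm3, counted in the cascade list although the channel of the cascade is TRPM1, was lower in retina with a difference of -1.47 (SE 0.38, limma adjusted p = 0.0117). Of the 12 bipolar genes tested, 2 were higher and 2 lower, where 20.5% of all genes were called. Of the 5 genes tested in the cascade list, Gnb3 was higher and Trpm3 lower. The median difference was 0.00 for the bipolar list, beside -0.53 over all genes. That of the cascade list, -1.47, was the value of Trpm3 itself. The transcription factor Nfia and the imprinted gene Nnat, among the highest of the bipolar list in retina, were also high in the SC, at up to 1371 and 3583 FPKM there.

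Rlbp1, the retinoid carrier of Müller glia and pigment epithelium, was the glial member whose level followed the retina. It was listed at 0 in both E17.5 retina libraries, at 0.648 and 0.140 FPKM at P0.5, at 0 and 5.99 FPKM at P7.5, and at 1.91 and 15.4 FPKM in the adult retina. In the Cre-positive SC it was listed at 0 in all 8 libraries, and in the Cre-negative SC it was above 0 in 1 of 8, at 4.62 FPKM in the adult replicate 1 that also held Pde6g. The adult retina values lay above those of E17.5 and P0.5, while P7.5 overlapped them through replicate 1. The share of all genes with such a separation was not counted. On the log2(FPKM + 1) scale the late retina exceeded the early retina by 1.87 (SE 0.94), which did not pass (limma adjusted p = 0.532). The late retina exceeded the Cre-positive SC by 2.09 (SE 0.62, limma adjusted p = 0.205) and the Cre-negative SC by 1.47 (SE 0.62, limma adjusted p = 0.442), and neither passed. The second comparison called 0.0834% of genes.

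The Rlbp1 calls depended on which libraries were in the fit, and not only on the libraries that stand apart. With P7.5 retina replicate 1 and adult Cre-negative SC replicate 1 left out, the late retina exceeded the Cre-positive SC by 2.80 (SE 0.47, limma adjusted p = 0.00461) and the Cre-negative SC by 2.80 (SE 0.51, limma adjusted p = 0.00657). The shares of genes called were then 3.36% and 4.59% of 7077. The change of the retina minus Cre-positive SC difference from early to late stages was 1.87 (SE 0.88, limma adjusted p = 0.207) with all libraries and 2.57 (SE 0.62, limma adjusted p = 0.0192) without the pair, where 10.5% and 12.2% of genes were called. Leaving out P7.5 retina replicate 1 alone gave 2.80 against the Cre-positive SC (limma adjusted p = 0.0227), leaving out adult retina replicate 1 gave 2.72 (limma adjusted p = 0.0359), and leaving out P7.5 retina replicate 2 gave 1.39 (limma adjusted p = 0.805). The pair was chosen after the data were seen, by eye genes and correlations, and without it every Rlbp1 value of 1 FPKM or more came from late retina, so that Rlbp1 entered the fit through the group where it was high. These values are therefore a description and not independent support. All Cre-positive SC libraries were listed at 0, and the difference depends on the 1 FPKM added and is not a fold. The 13 pigment epithelium genes summed to 1.44 and 14.2 FPKM in the P7.5 retina libraries and to 0.287 and 14.0 FPKM in the adult retina libraries, and their part in the Rlbp1 values was not tested.

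The bipolar and cascade lists were also read with and without this pair. With all libraries, 1 of 5 cascade genes tested (Gnb3), none of 12 bipolar genes and 1 of 15 photoreceptor genes were called higher in late retina than in Cre-positive SC. Of all 7193 genes, 0.167% were called there in either direction. More genes of each list, and of all genes, were called without the pair. The pair was chosen partly by low photoreceptor genes, so that rise follows in part from the choice and is not support. Gnb5 exceeded the Cre-positive SC by 2.84 (SE 0.76, limma adjusted p = 0.142) with all libraries and by 3.86 (SE 0.52) without the pair. The difference of the calcium sensor Scgn was 1.39 (SE 0.50, limma adjusted p = 0.350) and 2.03 (SE 0.45), and that of Grm6 was 0.82 (SE 0.28, limma adjusted p = 0.326) and 1.15 (SE 0.25). Grm6 reached 1 FPKM in 2 libraries, both of late retina, so that it too was tested through the group where it was high.

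**Figure D3:**
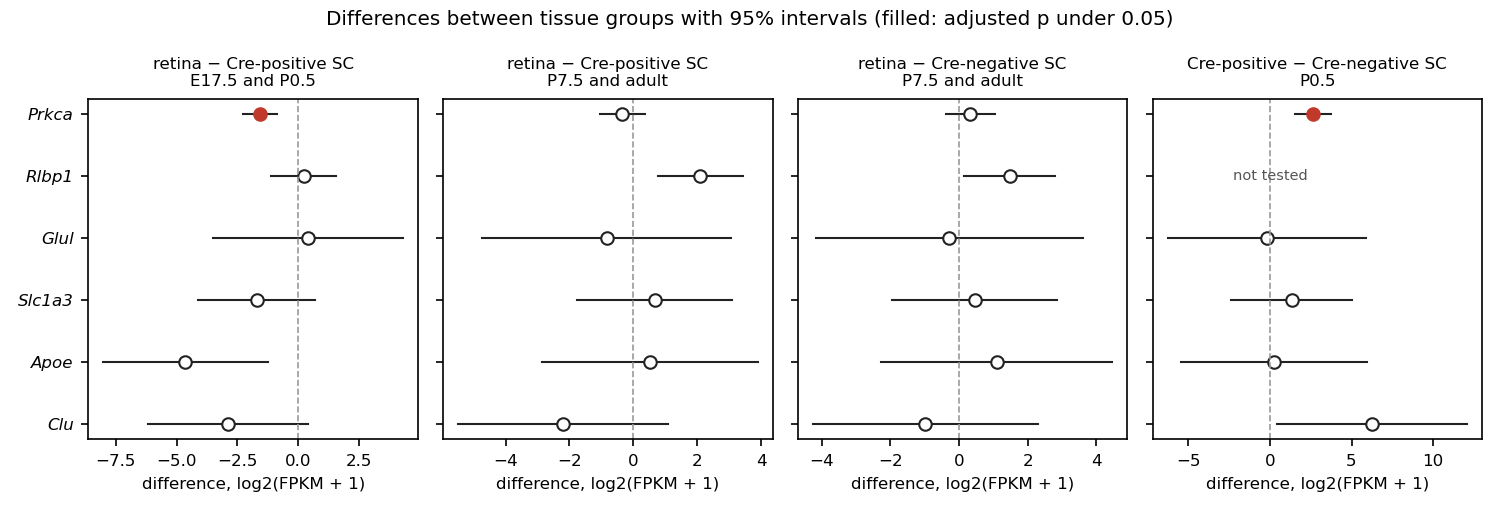
Differences of the 6 tested members on the log2(FPKM + 1) scale in 4 comparisons, with 95% intervals from limma and filled points where the adjusted p was under 0.05. Prkca passed in the early retina and in the P0.5 SC comparison, and in the late retina against Cre-positive SC the interval of Glul ran from -4.74 to 3.06.

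Glul and Slc1a3, the glutamine synthetase and glutamate transporter of glia, differed widely between replicates at E17.5 and P7.5. Glul in retina was listed at 50.6 and 1.92 FPKM at E17.5, 0.213 and 0.660 FPKM at P0.5, 474 and 9.35 FPKM at P7.5, and 7.35 and 1.67 FPKM in the adult. The highest value came from the library labelled P7.5 retina replicate 1. In the Cre-positive SC, Glul was listed at 22.9 and 0.0293 FPKM at E17.5, 0.0555 and 2.73 FPKM at P0.5, 199.8 and 0.244 FPKM at P7.5, and 87.2 and 49.97 FPKM in the adult. The replicate 1 libraries of E17.5 and P7.5 were high and the replicate 2 libraries low in retina, Cre-positive SC and Cre-negative SC alike. In the adult both Cre-positive SC libraries and both Cre-negative SC libraries, at 89.9 and 24.9 FPKM, lay above both retina libraries. The share of all genes separated in this way was not counted.

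No Glul difference passed the test. The step from P0.5 to P7.5 in retina was 5.63 (SE 1.83, limma adjusted p = 0.530), and it was 2.87 without P7.5 retina replicate 1 (limma adjusted p = 0.797) and 8.39 without P7.5 retina replicate 2 (limma adjusted p = 0.0153). The step from P7.5 to the adult was -3.89 (SE 1.83, limma adjusted p = 1), and -1.13 without P7.5 retina replicate 1. The late retina minus Cre-positive SC difference was -0.84 with a 95% interval from -4.74 to 3.06. Slc1a3 in retina was listed at 20.1 and 3.98 FPKM at E17.5, 0.834 and 0.727 FPKM at P0.5, 20.0 and 1.38 FPKM at P7.5, and 0 and 2.14 FPKM in the adult. Newborn Cre-positive SC listed it at 25.5 and 17.7 FPKM, and newborn Cre-negative SC at 5.76 and 10.6 FPKM, both above the retina of that stage. How many genes were so separated was not counted. No Slc1a3 difference passed, and its early retina minus Cre-positive SC difference was -1.70 with a 95% interval from -4.12 to 0.71.

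Of 16 other genes that handle glutamate and glutamine, 9 were testable in the 24 libraries and none passed between retina and SC. In the P0.5 SC, 3 of 9 were higher with Cre, among them the enzymes Glud1 and Got1, a share near the 32.5% of all genes called there. Slc38a3, the glutamine exporter SNAT3 of Müller glia and astrocytes, was listed at 0 to 0.742 FPKM in the early and P7.5 retina apart from 1.85 FPKM in E17.5 retina replicate 2, and at 0 and 15.3 FPKM in the adult retina. The 13 astrocyte genes summed to between 231 and 1254 FPKM in retina, to between 127 and 874 FPKM in Cre-positive SC and to between 161 and 506 FPKM in Cre-negative SC, and Aqp4, the glial water channel, was listed at 0 in all 24 libraries. Sox9 led this list and is also in the list of Müller genes. The part of astrocytes in the SC values of Glul and Slc1a3 was not tested.

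Apoe was the highest of the members, and its highest values were in the SC of newborn animals with and without Cre. At P0.5 the Cre-positive SC had 1549 and 1145 FPKM, and the Cre-negative SC had 1575 and 813 FPKM, against 7.29 and 7.30 FPKM in the retina. Both SC groups lay above the retina, and the share of all genes so separated was not counted. Cre-positive and Cre-negative SC overlapped and differed by 0.23 (SE 2.56, limma adjusted p = 1). In the retina Apoe was 1.94 and 6.90 FPKM at E17.5, 1.89 and 37.5 FPKM at P7.5, and 59.0 and 42.9 FPKM in the adult, where both libraries lay above those of the other stages. How many genes were ordered this way was not counted either. The late retina exceeded the early retina by 1.88 (SE 1.28), which did not pass (limma adjusted p = 0.693). The early retina minus Cre-positive SC difference was -4.63 (SE 1.59, limma adjusted p = 0.0501) and that against the Cre-negative SC was -4.46 (SE 1.59, limma adjusted p = 0.116), where 7.12% of genes were called. Without E17.5 Cre-negative SC replicate 2, in which Apoe was listed at 0, the latter was -6.50. With each library of the groups compared left out in turn, it ran from -6.50 to -2.41.

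Clu was low in the retina and uneven in the SC. It was listed at 0 to 1.71 FPKM in the 8 retina libraries, with 1.71 FPKM in replicate 2 of P7.5 and of the adult. Among Cre-positive SC libraries, P0.5 had 129.8 and 43.4 FPKM, P7.5 had 0 and 57.6 FPKM, and the adult pair had 58.6 and 0 FPKM. In the Cre-negative SC it reached 67.6 FPKM in E17.5 replicate 1 and 28.5 FPKM in P7.5 replicate 2. The late retina minus Cre-positive SC difference was -2.20 (SE 1.55, limma adjusted p = 0.661).

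Of 17 lipoprotein receptors and carriers, 16 were among the genes listed and 8 were testable in the 24 libraries. Lrp1 and Sorl1, receptors that bind apolipoprotein E, were lower in early retina than in Cre-positive SC, by log2(FPKM + 1) differences of -2.03 (SE 0.62, limma adjusted p = 0.0286) and -1.95 (SE 0.43, limma adjusted p = 0.00420). Both were higher in the Cre-positive than in the Cre-negative SC at P0.5, by 3.23 (SE 1.06) and 2.75 (SE 0.73). Abcg1, a sterol exporter, was the highest of the list in retina, at 294 to 2590 FPKM. In the same early comparison 5 of 26 other Müller genes tested were higher in retina and none lower, where 20.5% of all genes were called, 222 higher and 1255 lower. They were Sox9, the secreted Dkk3, Prdx6, the homeodomain factor Rax and the kinetochore gene Spc25, and Sox9 and Rax are also genes of retinal progenitors. Dkk3 was higher by 2.70 (SE 0.67, limma adjusted p = 0.00867) and Sox9 by 3.17 (SE 0.98, limma adjusted p = 0.0302). Of 15 visual cycle genes, 6 were testable, of which 1 was higher and none lower, against the same background.

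Within the retina none of the members passed in any stage comparison. Of the 9 members with values, 5 reached the filter there, Rlbp1, Glul, Slc1a3, Apoe and Clu. Of 4080 genes tested, 9 were higher and 30 lower in the late retina, none passed between E17.5 and P0.5 (34 at an unadjusted p under 0.05), 0.0735% passed between P0.5 and P7.5, and none passed between P7.5 and the adult (57 at an unadjusted p under 0.05). Pde6g rose by 5.39 (SE 1.29, limma adjusted p = 0.00790) from the early to the late retina, and 5 of 15 photoreceptor genes tested passed. No gene of the lists of other bipolar, mGluR6 cascade, other Müller, glutamate, visual cycle or lipoprotein genes passed within the retina.

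Patterns across all 24 libraries were compared by Pearson's r of log2(FPKM + 1) with the 7193 genes that reached 1 FPKM in at least 2 libraries. The nearest genes to Trpm1 were Mad2l1bp (r = 0.997), Hrsp12 (r = 0.984), Sfrp4 (r = 0.983), Etfa (r = 0.983) and Col9a1 (r = 0.980). Trpm1 was above 0.9 FPKM in 1 library, and such values rest on few points. The nearest genes to Glul were Cplx2 (r = 0.839), Tmem87a (r = 0.810), Mapk4 (r = 0.789), Hyou1 (r = 0.787) and Sv2b (r = 0.783). The points share libraries and their depth, and no test was made.

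The run-off libraries gave read counts, and all 9 members were detected in the adult retina without run-off, which held 4686284 reads on genes. Rlbp1 had 668 reads (exact Poisson 95% interval 618 to 721), Glul 428 (388 to 471), Clu 417 (378 to 459), Apoe 399 (361 to 440) and Slc1a3 225 (197 to 256). Among bipolar members Trpm1 had 123 reads (102 to 147), Prkca 108 (88.6 to 130), Cabp5 65 (50.2 to 82.8) and Pcp2 11 (5.49 to 19.7). These are reads per gene, not corrected for length, so their order is not an order of levels. In the Cre-positive SC without run-off, with 3262914 reads, Trpm1, Pcp2, Cabp5 and Rlbp1 had 0 reads, whose interval reaches 1.13 reads in a library scaled to 1000000, while Prkca had 190 and Glul 397. Scaled to a common library total of 1000000 reads (CPM), Trpm1 stood at 26.2 in retina, Cabp5 at 13.9, Pcp2 at 2.35 and Rlbp1 at 143. Intervals cover counting error only, and with 1 library per group no test was possible.

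The mGluR6 cascade and the wider bipolar list were seen in the same retina library. Of 15 cascade genes, 12 had more than 3 reads there, against 2 in the SC library, with 11 reads for Grm6, 947 for Gnb3 and 811 for Gnb5. Of 28 other bipolar genes, 17 had more than 3 reads, against 6 in the SC, with 415 for Otx2. Of 35 other Müller genes, 29 had more than 3 reads, against 9 in the SC. Over all genes, 9159 had at least 1 read in this retina library and 5354 in the SC library, and the share above 3 reads was not counted. The 13 pigment epithelium genes summed to 445 reads in retina and 4 in SC, and the 20 photoreceptor genes to 40292 and 6.

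After run-off the retina library held 315009 reads, 6.72% of the number without run-off. Prkca, Pcp2 and Cabp5 had 0 reads, and Trpm1 had 2, or 6.35 CPM (0.769 to 22.9) against 26.2 (21.8 to 31.3). The interval of 0 reads reaches 11.7 CPM in this library. It lies below that of Prkca without run-off (18.9 to 27.8). It overlaps those of Cabp5 (10.7 to 17.7) and Pcp2 (1.17 to 4.20), and the intervals of Trpm1 overlap as well. Overlap of intervals is not a test, and no test of a loss was made for these genes. Rlbp1 stood at 82.5 CPM (53.9 to 121) against 143 (132 to 154), whose intervals do not overlap. Clu stood at 50.8 (29.0 to 82.5) against 89.0 (80.6 to 97.9) and Glul at 54.0 (31.4 to 86.4) against 91.3 (82.9 to 100.4), and within both pairs the intervals overlap. Apoe went the other way, with 185 reads or 587 CPM (506 to 678) against 85.1 (77.0 to 93.9). Lens genes also took a larger part of the library after run-off, 12822 against 1864 CPM.

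In the Cre-positive SC the run-off library held 349395 reads, 10.7% of the number without run-off. Prkca had 190 reads without run-off and 0 with it, and Clu 159 and 0, which are 58.2 and 48.7 CPM before run-off against an interval of up to 10.6 CPM after it. Glul stood at 435 CPM (369 to 510) against 122 (110 to 134), and Slc1a3 at 212 (166 to 266) against 16.5 (12.4 to 21.6). The number of reads for Slc1a3, 74, was larger than the 54 without run-off, while Apoe had 3 reads against 76. The 14 oligodendrocyte and myelin genes stood at 15301 against 5570 CPM, and their part in these values was not tested.

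**Figure D4:**
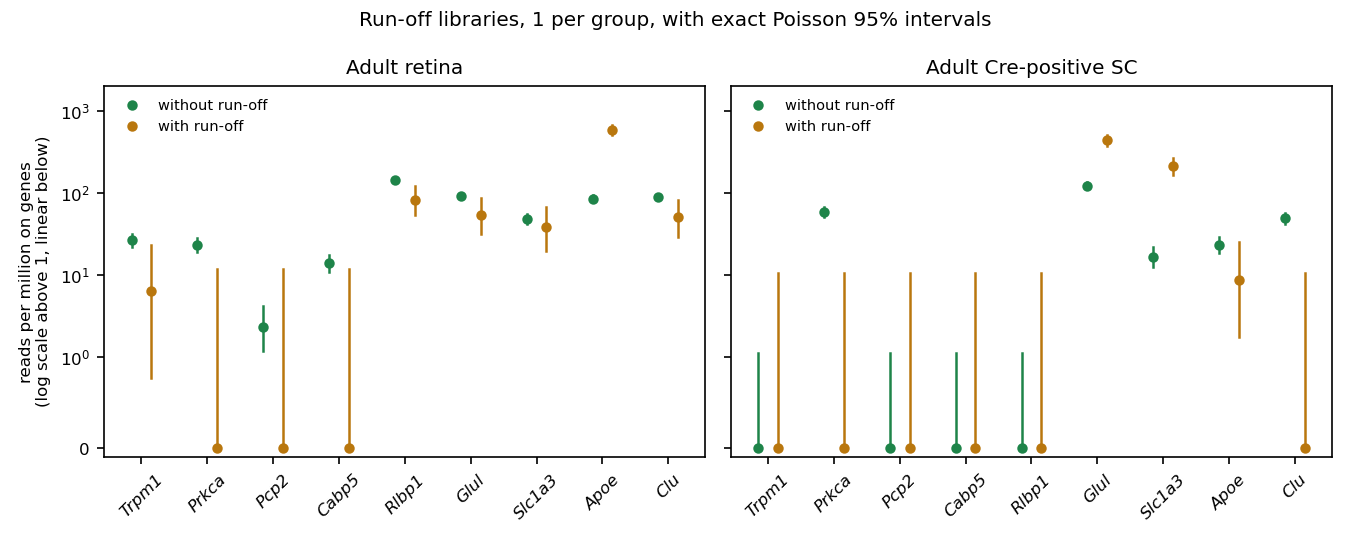
CPM on genes for the 9 members in the 4 adult run-off libraries, on an axis that is logarithmic above 1 and linear below it, with exact Poisson 95% intervals that cover counting error only. Trpm1, Pcp2, Cabp5 and Rlbp1 had reads in retina and none in the SC, and Apoe in retina and Glul and Slc1a3 in SC were higher after run-off.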

How the data were processed

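Ribosome-bound mRNA was measured in 28 libraries, 24 with FPKM and 4 with read counts. Per the labels, the immunopurified RNA was amplified by a PCR-based method before Illumina sequencing. The authors aligned reads to mm10 with TopHat2 2.0.12, computed FPKM per gene with Cufflinks 2.2.1 and deposited them, and deposited gene counts of the run-off libraries made with HTSeq 0.6.1p1. No molecular identifiers were used, so reads do not count molecules. Groups were taken from the labels, with 2 libraries each, and p-values measure the spread between these samples. Cre-positive and Cre-negative mice were littermates, but the labels do not say that equal replicate numbers mark the same litter, and these were not treated as pairs.

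FPKM were tested as log2(FPKM + 1) with limma 3.58.1 in R 4.3.3, with trend and robust moderation, for genes at 1 FPKM or more in at least 2 libraries of the fit. The retina fit held 8 libraries, the retina and SC fit 24, and the SC fit 16. P-values were adjusted by Benjamini-Hochberg over all genes tested, with a threshold of 0.05, and differences understate changes of low genes. In 4 genes an entry was missing, and these were left out. Counts were divided by the library's total on genes, scaled to 1000000 reads (CPM), with exact Poisson 95% intervals. Fragment numbers per FPKM library are estimates, since FPKM carries no depth. The code was tested on simulated data. The named genes are the 10 members, the 4 genes of each list with the highest mean FPKM in retina, genes of the related lists that passed within retina, and the 5 genes nearest in pattern to Trpm1 and Glul. Genes of the lists named for passing between retina and SC, pigment genes and Grm6 beside Trpm1 and reference genes for library identity were named after their values were seen. The members and lists were chosen with earlier results of these data known. Alternatives were another pseudocount, filter, scaling and moderation, other libraries in the fit, a replicate block, and each library left out in turn. Some genes of the lists enter the counts but are not reported here by name.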

Additional observations from a re-analysis of the deposited data

Results flagged for a closer look

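The run-off libraries lie outside the FPKM comparisons, and 4 members had reads there in the adult retina without run-off and none in the adult Cre-positive SC without run-off. They were Rlbp1 with 668 reads, Trpm1 with 123, Cabp5 with 65 and Pcp2 with 11. Pcp2 was listed at 0 in all 24 FPKM libraries. Over all genes, 9159 had at least 1 read in this retina library, of 4686284 reads, and 5354 in the SC library, of 3262914 reads. The share of all genes with reads in the retina library and none in the SC library was not counted. There was 1 run-off library per group, so these differences have no replicate check.

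The difference between retina and Cre-positive SC changed from the early to the late stages in 754 of 7193 genes (limma adjusted p under 0.05), of which 698 moved up and 56 down. None of the 6 members tested was among them. Prkca came nearest, with a change of 1.21 (SE 0.48, limma adjusted p = 0.120). With each library of the groups compared left out in turn, its change ran from 0.956 to 1.47.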

How the results depend on the processing

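No member's difference with an unadjusted p under 0.05 changed sign under any alternative. The Prkca calls held under all alternatives but the one without P0.5 Cre-positive SC replicate 1. Apoe in early retina against Cre-positive SC passed with a filter of 4 libraries (limma adjusted p = 0.0499), median-ratio scaling (0.0444), the replicate block (0.0279) and only the libraries compared (0.0113). Clu in the P0.5 SC comparison passed with the replicate block (limma adjusted p = 0.0323) and with only the libraries compared (0.00405).

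Counts of called genes moved with the processing, and the cause was not tested. A pseudocount of 0.1 gave 908 calls in the early and 4 in the late retina against Cre-positive SC, 3 in the late retina against Cre-negative SC and 298 for the change, against 1477, 12, 6 and 754. With no filter there were 0 calls for the late against the early retina, 0 for P7.5 against P0.5, and 852 for the early retina against Cre-negative SC, against 39, 3 and 512. A filter of 4 libraries gave 20, 0, 612, 32, 310, 0, 38, 0, 632 and 0 calls in the late against early retina, P7.5 against P0.5, early and late retina against Cre-positive SC, early and late retina against Cre-negative SC, the change, and the SC comparisons at E17.5, P0.5 and in the adult, against 39, 3, 1477, 12, 512, 6, 754, 94, 1944 and 9. Median-ratio scaling gave 5, 0 and 2 calls for the late against early retina, P7.5 against P0.5 and the late retina against Cre-negative SC, the last with 0 higher and 2 lower against 1 higher and 5 lower. Scaling moved the median of all genes from -0.50 to -0.11 between E17.5 and P0.5 in retina and from 0.32 to -0.06 between P0.5 and P7.5. Without robust moderation there were 18 and 0 calls for the late against early retina and P7.5 against P0.5. All 24 libraries in the fit gave 70 and 11 calls for the late against early retina and P0.5 against E17.5. Only the libraries compared gave 30 calls for the late retina against Cre-positive SC, 45 for the early retina against Cre-negative SC, and 0 for the SC at E17.5 and in the adult. With both libraries that stand apart left out, an alternative chosen after seeing the data, there were 238 and 325 calls for the late retina against Cre-positive and Cre-negative SC.

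The replicate block gave 27 and 12 calls for the late retina against Cre-positive and Cre-negative SC, and 19 and 0 for the SC at E17.5 and in the adult. Deviations of equally numbered libraries correlated between -0.210 and 0.429 within a stage, with every pair over 0.1 at P0.5 and P7.5 but not at E17.5 or in the adult, so the numbers were not read as pairs.

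Leaving out 1 library at a time gave 6 to 87 calls for the late against early retina, 0 to 1 for P0.5 against E17.5, 1 to 22 for P7.5 against P0.5 and 0 to 31 for adult against P7.5. It gave 359 to 1761 and 2 to 190 calls for the early and late retina against Cre-positive SC, 208 to 1288 and 4 to 198 against Cre-negative SC, and 32 to 1158 for the change. It gave 126 to 865, 448 to 1244, 0 to 55 and 22 to 112 calls for the SC at E17.5, P0.5, P7.5 and in the adult. Percentages of run-off reads left apply to reads as counted, and scaled to equal library totals they were 690 for Apoe in retina and 1280 for Slc1a3 in SC. The depth of the adult SC libraries hides levels under 0.712 to 2.90 FPKM on a transcript of 2 kb.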
